A study of Mus musculus with 8 samples.

Results

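KLF1 binding away from promoters is described here at the 469 sites where wild type and mutant protein both passed a concentration threshold, out of 5551 consensus sites. The threshold is set on read counts and does not require a peak call for each protein. KLF1-ER is a fusion of mouse KLF1 with the part of the estrogen receptor that binds tamoxifen, and KLF1-E339K-ER is the same fusion with a glutamate-to-lysine change in the second zinc finger. Both were expressed in K1 cells, an immortalised erythroid line from Klf1-/- mouse fetal liver, so no endogenous KLF1 was present in any group. A site was taken as shared when its concentration, the log2 of the authors' mean normalised read count, was at least 4 for each protein, and as non-promoter when its midpoint lay more than 1000 bp from the closest transcription start site (TSS). The sites were thus chosen by their concentrations, which serve as a description and support nothing else. ChIP-seq of KLF1-E339K-ER was done in 1 clone (labelled K1-CDA-ER) after 3 h in 200 nM 4-hydroxytamoxifen (4-OHT), with 1 ChIP library of pooled replicates and 1 input library, while the KLF1-ER libraries came from the authors' earlier work. Nascent RNA was labelled with 500 µM 4-thiouridine for 30 min in 3 K1 libraries, 2 of them with 4-OHT and 1 with ethanol, and in 3 K1-CDA-ER libraries, each of another clone, with 4-OHT. The tables give 1 concentration per protein and site, without values of single libraries, so their spread between replicates is not known.

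KLF1 activates genes of the erythroid programme, among them globins, heme enzymes, membrane proteins and cell cycle regulators. It reads the G-rich strand of its motif through zinc fingers, and the residue changed in KLF1-E339K faces the middle of that motif. In erythroid enhancers KLF1 is known to share ground with GATA1 and with TAL1, a factor that recognises the E-box and joins GATA1 through LMO2 and LDB1. The substitution models the mutation of a human congenital dyserythropoietic anemia.

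The sequences that follow show the 101 bases around the midpoint of named sites in NCBIM37 (mm9), written 5′ to 3′ on the strand that carries the match closest to the midpoint. Capitals mark KLF octamers on either strand, or GATA hexamers (AGATAA or TGATAA) where no octamer was found, and a window without capitals held neither. The octamers with a pyrimidine in the middle were GGGCGTGG, GGGCGGGG, GGGTGTGG and GGGTGGGG, and those with a purine there were GGGAGTGG, GGGAGGGG, GGGGGTGG and GGGGGGGG. The first set belongs to the 8 sites where the lower of both concentrations was highest, and 5 of the 8 windows are shown because the others touch an annotated UTR.
Asic1 (chr15:99495198-99495298, minus strand): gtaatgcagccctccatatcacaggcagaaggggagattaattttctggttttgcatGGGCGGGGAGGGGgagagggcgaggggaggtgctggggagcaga
Nfe2 (chr15:103088932-103089032, minus strand): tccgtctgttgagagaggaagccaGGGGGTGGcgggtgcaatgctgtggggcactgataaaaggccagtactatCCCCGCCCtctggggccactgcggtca
Wdr26 (chr1:183186809-183186909, plus strand): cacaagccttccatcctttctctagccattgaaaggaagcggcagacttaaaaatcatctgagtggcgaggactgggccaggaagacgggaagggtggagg
Fam92b (chr8:122800469-122800569, minus strand): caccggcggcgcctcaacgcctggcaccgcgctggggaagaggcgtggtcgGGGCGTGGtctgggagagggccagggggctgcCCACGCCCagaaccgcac
Eno3 (chr11:70469478-70469578, plus strand): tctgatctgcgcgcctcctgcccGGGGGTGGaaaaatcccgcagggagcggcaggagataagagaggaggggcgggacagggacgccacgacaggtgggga
Asic1, an acid-sensing channel gene, led this order, with 8.24 for KLF1-ER and 0.76 more for KLF1-E339K-ER, in intergenic sequence 5901 bp upstream of the TSS. Its window held a purine and a pyrimidine octamer that overlap, so a single G-rich run carried both. The site next in order lay in intergenic sequence 3135.5 bp upstream of Nfe2, which codes for the large subunit of the globin regulator NF-E2, and had 8.03 and 8.90 in the same order. Wdr26 followed with 8.10 and 7.83 at an intergenic site 44750 bp upstream, without an octamer in the 101 bases but with both kinds elsewhere in the site. The site closest to Fam92b had 7.45 and 8.23 and lay 99150 bp upstream in an intron of Gm20388, with 2 pyrimidine octamers. The site of Eno3, the muscle enolase gene, had 7.25 and 8.35 and lay 1149.5 bp upstream in an intron of Gm12319. The windows not shown were those of Nyap1 (7.39 and 7.78), Gm15417 (7.33 and 7.11, in a UTR of Zbtb7b) and Sipa1 (7.03 and 8.10).

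The next set shows the sites with the largest difference between both proteins in each direction, to set them beside the sites high for both. The first 4 had more KLF1-E339K-ER and the last 4 more KLF1-ER.
Asic4 (chr1:75441760-75441860, plus strand): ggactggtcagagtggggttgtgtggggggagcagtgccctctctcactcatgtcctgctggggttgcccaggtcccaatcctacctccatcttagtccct
8430427H17Rik (chr2:153354232-153354332, minus strand): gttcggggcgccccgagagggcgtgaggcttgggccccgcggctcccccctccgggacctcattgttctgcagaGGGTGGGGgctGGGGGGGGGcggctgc
Gata1 (chrX:7548567-7548667, plus strand): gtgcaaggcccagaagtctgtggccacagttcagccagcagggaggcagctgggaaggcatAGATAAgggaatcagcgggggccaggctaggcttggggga
Sox12 (chr2:152222148-152222248, plus strand): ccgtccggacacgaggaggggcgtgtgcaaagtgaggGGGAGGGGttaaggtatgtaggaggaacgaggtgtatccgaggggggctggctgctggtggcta
Ap5z1 (chr5:142916589-142916689, minus strand): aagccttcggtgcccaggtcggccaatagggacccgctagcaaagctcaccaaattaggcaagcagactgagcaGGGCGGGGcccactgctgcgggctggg
Itpka (chr2:119570093-119570193, plus strand): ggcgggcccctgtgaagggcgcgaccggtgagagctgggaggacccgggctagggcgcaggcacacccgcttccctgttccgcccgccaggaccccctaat
Myh7b (chr2:155430754-155430854, plus strand): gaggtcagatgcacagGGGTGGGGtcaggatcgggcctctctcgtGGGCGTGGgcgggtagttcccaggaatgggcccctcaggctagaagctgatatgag
Fam160a1 (chr3:85529158-85529258, plus strand): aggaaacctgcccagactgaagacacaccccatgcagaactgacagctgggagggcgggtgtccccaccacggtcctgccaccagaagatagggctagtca
KLF1-E339K-ER exceeded KLF1-ER by 4.01 at the intergenic Asic4 site (8.44 against 4.43), by 3.44 in an intron of 8430427H17Rik (7.74 against 4.30), by 3.16 at Gata1 (8.22 against 5.06) and by 3.00 in an intron of Sox12 (7.98 against 4.98). The Gata1 site lay 3581.5 bp upstream of the deposited TSS, in an intron of a longer annotated transcript, and its window held a GATA hexamer and no KLF octamer. In the other direction the differences (KLF1-E339K-ER minus KLF1-ER) were -3.13 at the Ap5z1 site in an intron of Foxk1, -2.83 in an intron of Itpka, -2.62 at an intergenic site upstream of Myh7b and -2.55 in an intron of Fam160a1. The octamers of the Ap5z1 and Myh7b windows were all of the pyrimidine kind, whereas the Itpka and Fam160a1 windows held none. Sequences of the E2f2 and Zfpm1 sites, the listed erythroid genes with the most shared sites, complete the set. E2f2 codes for a cell cycle transcription factor and Zfpm1 for FOG1, the partner of GATA1. The window of the fourth E2f2 site touches an annotated UTR and is not shown.
E2f2 (chr4:135730770-135730870, plus strand): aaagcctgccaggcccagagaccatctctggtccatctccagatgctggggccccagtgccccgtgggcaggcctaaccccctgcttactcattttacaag
E2f2 (chr4:135733605-135733705, minus strand): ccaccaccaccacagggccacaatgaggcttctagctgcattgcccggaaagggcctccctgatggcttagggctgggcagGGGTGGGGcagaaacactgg
E2f2 (chr4:135733970-135734070, plus strand): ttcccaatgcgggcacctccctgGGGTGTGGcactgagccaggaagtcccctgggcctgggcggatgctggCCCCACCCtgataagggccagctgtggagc
Zfpm1 (chr8:124808424-124808524, plus strand): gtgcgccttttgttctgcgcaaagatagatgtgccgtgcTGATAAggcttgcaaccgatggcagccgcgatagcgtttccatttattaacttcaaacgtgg
Zfpm1 (chr8:124820596-124820696, plus strand): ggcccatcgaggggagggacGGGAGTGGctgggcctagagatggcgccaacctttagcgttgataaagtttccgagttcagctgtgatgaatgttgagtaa
Zfpm1 (chr8:124833303-124833403, plus strand): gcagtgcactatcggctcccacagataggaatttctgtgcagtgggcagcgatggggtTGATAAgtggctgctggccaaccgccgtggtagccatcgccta
Zfpm1 (chr8:124837387-124837487, minus strand): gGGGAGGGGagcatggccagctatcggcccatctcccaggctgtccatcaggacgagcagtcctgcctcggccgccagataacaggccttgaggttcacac
Zfpm1 (chr8:124843406-124843506, plus strand): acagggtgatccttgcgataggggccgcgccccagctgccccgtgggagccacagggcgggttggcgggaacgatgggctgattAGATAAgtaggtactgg

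Across the 469 shared sites the KLF1-ER concentration had a median of 5.27 (quartiles 4.58 and 5.99), and that of KLF1-E339K-ER a median of 5.51 (quartiles 4.82 and 6.45). The medians over all 5551 sites were 2.82 and 4.86. Both proteins reached 4 at 883 of all sites (15.9%), of which the other 414 lay at promoters. The difference, KLF1-E339K-ER minus KLF1-ER, ranged from -3.13 to 4.01 among the shared sites with a median of 0.37 (quartiles -0.63 and 1.08), and KLF1-E339K-ER was higher at 278 of them and KLF1-ER at 190. KLF1-E339K-ER was at least 2-fold higher at 131 shared sites (27.9%), against 61.5% of all sites, and KLF1-ER at 77 (16.4%), against 28.7% of all sites. The remaining 261 shared sites (55.7%) lay within 2-fold. These shares follow from the selection on both concentrations. The upper quartile over all sites was 5.08 for KLF1-ER and 5.61 for KLF1-E339K-ER. With the upper quartiles set equal, the median difference of the same 469 sites was -0.16, with KLF1-E339K-ER at least 2-fold higher at 71 and KLF1-ER at 136, and 393 sites met the rule, with a median of 0.02. The direction of the lean thus depends on how the libraries are scaled.

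**Figure D1:**
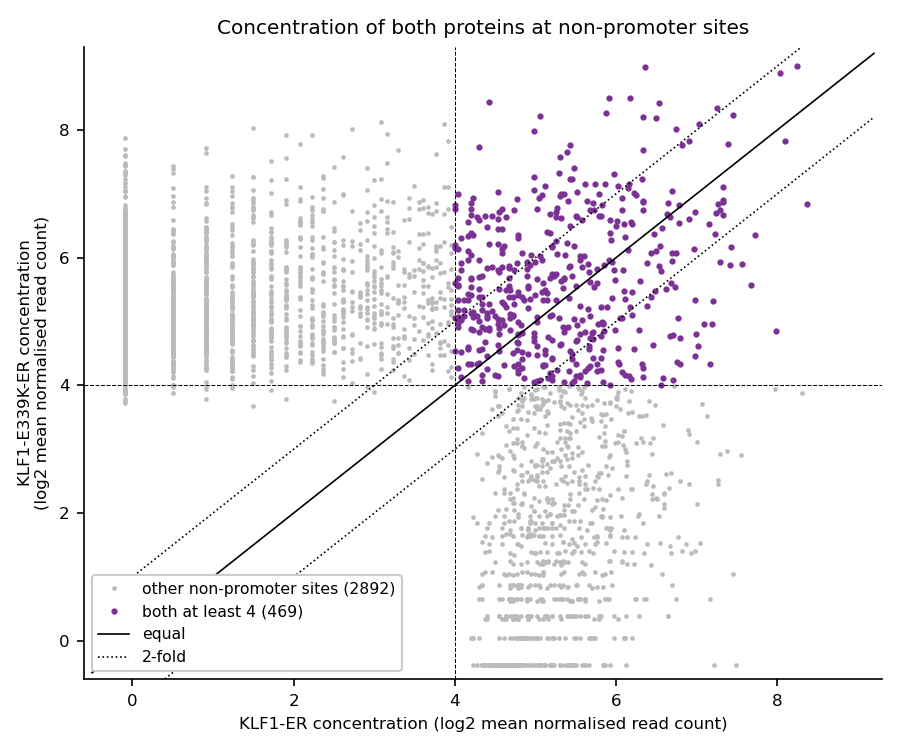
Concentration (log2 mean normalised read count) of KLF1-ER on the horizontal axis and KLF1-E339K-ER on the vertical axis at non-promoter sites, 1 point per site. The 469 shared sites fill the corner above 4 on both axes and lie on either side of the line of equal concentration.

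The rule divided sites of nearly equal values. Just inside the KLF1-ER threshold were Efcab2 (4.00, with 5.06 for KLF1-E339K-ER) and Gm11346 (4.00 and 6.20), and just outside were Appl2 (3.95 and 5.10) and Samd8 (3.95 and 6.48). For KLF1-E339K-ER, the sites of Fam160a1 and Trim14 (both 4.01) were just inside, and those of Tenc1 and Lyl1 (both 3.99, with 5.42 and 6.72 for KLF1-ER) just outside. By distance, Set (1018.5 bp) and C030006K11Rik (1020.5 bp) were just inside, and Blvrb (1000 bp) just outside.

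To ask which sequence the shared sites carry, KLF octamers were searched within 50 bp of the midpoint on both strands. Of the 469 sites, 93 (19.8%) held pyrimidine octamers alone, 76 (16.2%) purine octamers alone, 68 (14.5%) both kinds and 232 (49.5%, 95% Wilson interval 45.0 to 54.0) neither. These intervals cover the counting of sites only. The comparison sites were the 849 non-promoter sites where only KLF1-ER reached 4, called KLF1-ER-only sites, and the 2019 where only KLF1-E339K-ER did. A pyrimidine octamer was present at 34.3% of shared sites (30.2 to 38.7), between 62.5% of KLF1-ER-only and 22.1% of KLF1-E339K-ER-only sites and close to the 35.4% of all sites. A purine octamer was present at 30.7% (26.7 to 35.0), between 17.3% and 48.8% in the same order, against 35.7% of all sites. No octamer of either kind was found at 31.9% of KLF1-ER-only and 43.7% of KLF1-E339K-ER-only sites, and at 41.9% of all sites. In windows of the same length 200 to 300 bp from the midpoint, octamers of either kind occurred at 17.9% of shared sites on one side and 18.8% on the other. These shares were 9.54% and 10.1% for KLF1-ER-only sites, and 14.7% and 14.6% for KLF1-E339K-ER-only sites. Wide sites reach into these windows, such as the 126 shared sites wider than 500 bp, against 27 KLF1-ER-only and 185 KLF1-E339K-ER-only sites.

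**Figure D2:**
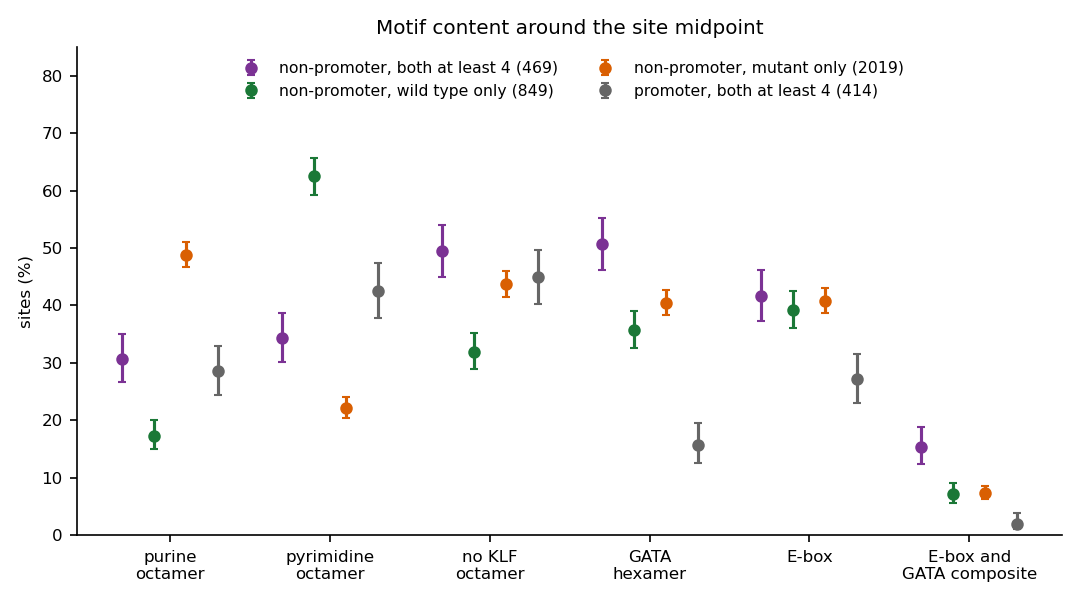
Percentage of sites with each motif in 4 classes of site, with 95% Wilson intervals as bars. KLF octamers were searched within 50 bp of the midpoint, and GATA hexamers, E-boxes and the composite of E-box and GATA within 150 bp. Shared sites lie between both one-protein classes for each kind of octamer and above these 2 classes for GATA and the composite.

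The classes differed in the base in the middle of the octamer. Octamers with G there occurred at 14.3% of shared, 4.83% of KLF1-ER-only and 33.3% of KLF1-E339K-ER-only sites, and octamers with C at 12.4%, 37.3% and 5.84% in the same order. Octamers with T were found at 24.7% of shared sites, 35.3% of KLF1-ER-only and 17.0% of KLF1-E339K-ER-only sites, and those with A at 18.6%, 13.0% and 20.9%. The commonest single octamer of the shared sites was GGGTGGGG, at 87 of the 469 (18.6%), which was also common in the other classes, with 20.8% and 15.0%. GGGCGTGG was present at 3.41% of shared sites against 17.3% of KLF1-ER-only and 0.347% of KLF1-E339K-ER-only sites. GGGGGGGG was present at 4.9% of shared sites, against 0.471% and 17.1%. GGGAGTGG, a purine octamer, was more frequent at KLF1-ER-only (7.07%) than at KLF1-E339K-ER-only sites (4.01%), unlike the other purine octamers, and was present at 5.12% of shared sites. For each of these 3 octamers the shared sites thus lay between the other classes.

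Shared sites were wider than those of 1 protein, though not wider than shared promoter sites. The median width was 379 bp for shared sites, 322 bp for KLF1-ER-only, 326 bp for KLF1-E339K-ER-only and 416.5 bp for shared promoter sites, and 281 of the 469 (59.9%) were wider than 350 bp, against 68.1% of shared promoter sites. Over the whole site, 83.6% of shared sites held at least 1 octamer, against 80.2% of KLF1-ER-only, 77.6% of KLF1-E339K-ER-only, 90.3% of shared promoter and 81.9% of all sites, so the low share of the central window was not seen there. Both kinds were present at 46.1% of shared sites, against 25.8%, 32.6%, 56.8% and 35.1% in the same order. Among sites of at most 350 bp, a choice made after the data were seen, 37.2% of shared sites lacked an octamer in the central window, against 27.4% and 38.0%. Within 50 bp of the midpoint, purine octamers occurred at 5.99 per kb of shared sequence and pyrimidine octamers at 4.97 per kb, and from 200 to 300 bp away at 1.70 and 1.43 per kb. KLF1-ER-only sites had 11.6 pyrimidine and 2.34 purine octamers per kb in the centre and 0.718 and 0.984 away from it, and KLF1-E339K-ER-only sites 2.77 and 12.9 in the centre and 0.976 and 1.90 away from it. Both kinds were thus denser in the centre in each class, with the steepest fall for the kind most frequent in each one-protein class.

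**Figure D3:**
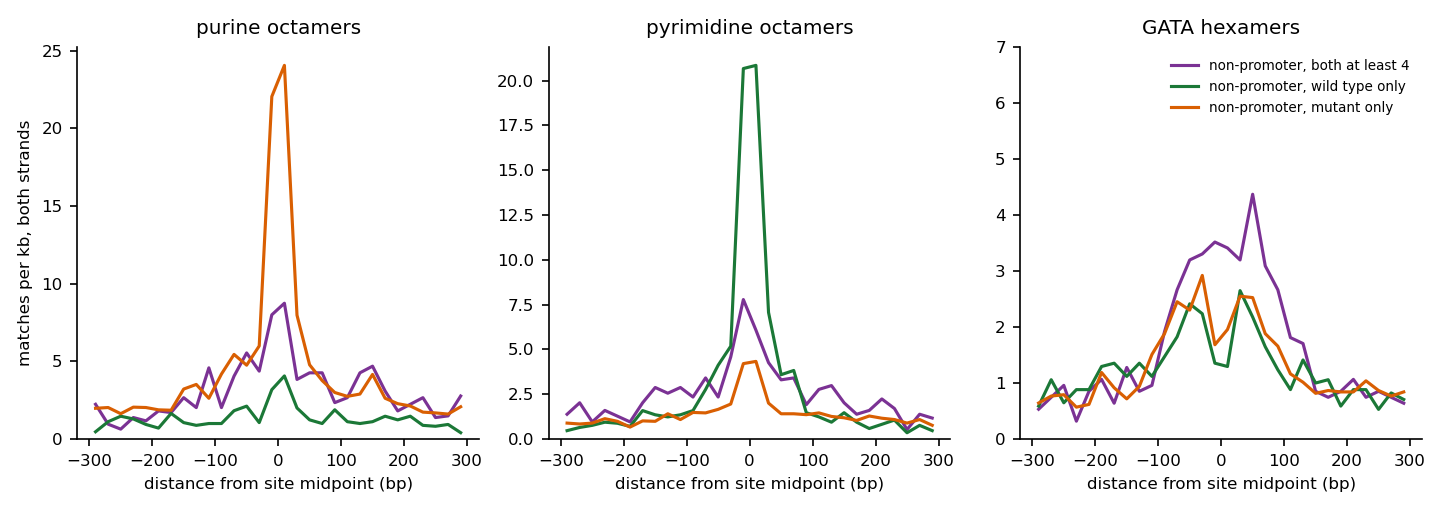
Matches per kb, counted on both strands in bins along the distance from the site midpoint in bp, for purine octamers, pyrimidine octamers and GATA hexamers in 3 classes of non-promoter sites. Within 50 bp, shared sites lie between the one-protein classes for purine (5.99 per kb) and pyrimidine octamers (4.97 per kb). They have the highest density of GATA hexamers there (3.41 per kb).

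The differences that follow rest on the concentrations that chose the sites, so they describe the sites by kind of octamer and support nothing. Sites with pyrimidine octamers alone had a median difference (KLF1-E339K-ER minus KLF1-ER) of -0.33 (quartiles -1.02 and 0.55, 95% interval of the median -0.67 to 0.18), with medians of 5.46 for KLF1-ER and 4.99 for KLF1-E339K-ER. Sites with purine octamers alone had a median difference of 0.40 (-0.03 to 0.80), sites with both kinds 0.53 (0.05 to 0.84) and sites with neither 0.45 (0.33 to 0.65). These intervals treat the sites as independent, and both concentrations were cut at the threshold that chose the sites. No difference between the groups is therefore read from whether the intervals overlap. KLF1-ER was at least 2-fold higher at 24 of the 93 pyrimidine-only sites (25.8%) and KLF1-E339K-ER at 12 (12.9%), whereas at the 76 purine-only sites these numbers were 14 (18.4%) and 24 (31.6%). By the middle base, the 27 sites where C was the sole kind had a median difference of -0.45 (-1.05 to 0.33). The 64 with T had -0.17 (-0.62 to 0.25), the 54 with A 0.27 (-0.19 to 0.71) and the 18 with G 0.71 (-0.37 to 1.15). Each of these intervals includes 0, and they are not compared with each other for the same reason. The sign for A turns with the shift of 0.53 given next. A shift of 0.53, which sets the upper quartiles equal, makes the pyrimidine-only median -0.86 and the purine-only median -0.14 on the same sites, and KLF1-ER is then at least 2-fold higher at 20 and KLF1-E339K-ER at 11 of the purine-only sites, the other way round than before. On the 393 sites that meet the rule after the shift, an alternative added after the data were seen, the medians are -0.42 for pyrimidine-only, 0.16 for purine-only, 0.30 for both kinds and 0.10 for neither. Of these, 9 of 64 purine-only sites are at least 2-fold higher for KLF1-ER and 11 for KLF1-E339K-ER. The direction of the purine-only, both and neither groups thus depends on the scaling and on which sites then meet the rule. At the pyrimidine-only sites, KLF1-ER was at least 2-fold higher at 39 and KLF1-E339K-ER at 7 of the same sites after the shift. On those that meet the rule after the shift, the counts were 23 and 7. On the same sites the shift can only raise the count for KLF1-ER, and the sites were chosen by these values, so no direction is read from the counts. No test of these differences was made.

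**Figure D4:**
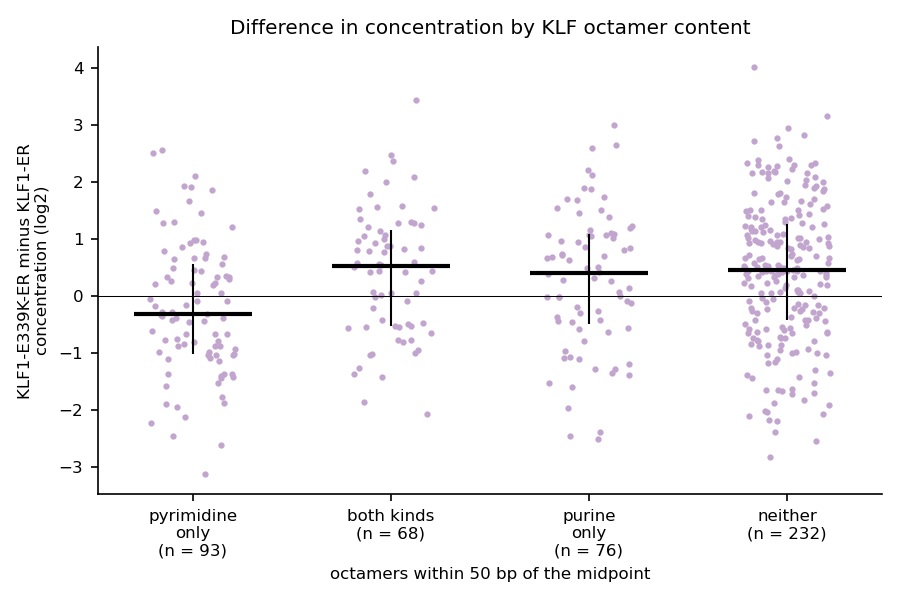
Difference in concentration (KLF1-E339K-ER minus KLF1-ER, log2) at the 469 shared sites by the octamers within 50 bp of the midpoint, 1 point per site. Thick bars are medians and thin bars run from the lower to the upper quartile, and the median of the pyrimidine-only sites (-0.33) lies below the other medians.

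GATA hexamers were frequent at the shared sites. Within 150 bp of the midpoint, 238 of the 469 (50.7%, 46.2 to 55.2) held AGATAA or TGATAA, against 35.7% (32.5 to 39.0) of KLF1-ER-only sites, 40.4% (38.3 to 42.6) of KLF1-E339K-ER-only sites, 15.7% of the shared promoter sites and 29.3% of all sites. The 24 non-promoter sites where neither protein reached 4 held one in 13 cases (54.2%, 35.1 to 72.1), so the share is not particular to shared sites. In windows of the same length centred 1000 bp away the share was 16.6% for shared, 21.6% for KLF1-ER-only and 19.5% for KLF1-E339K-ER-only sites. Within 50 bp of the midpoint the density of the hexamers was 3.41 per kb at shared sites, 1.92 at KLF1-ER-only and 2.35 at KLF1-E339K-ER-only sites, and from 200 to 300 bp away it was 0.746, 0.789 and 0.775. The 232 shared sites with no central KLF octamer held a GATA hexamer in 127 cases (54.7%, 48.3 to 61.0), the purine-only sites at 51.3%, those with both kinds at 47.1% and the 93 pyrimidine-only sites in 40 cases (43.0%, 33.4 to 53.2), with intervals that overlap. Sites with no octamer held one at 36.5% of KLF1-ER-only and 42.3% of KLF1-E339K-ER-only sites. Altogether 364 shared sites (77.6%) had a central KLF octamer, a GATA hexamer or both, close to the 76.5% of all non-promoter sites.

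The share with a GATA hexamer moved with base composition, width and distance, and was higher at shared sites in each layer of these. Among sites with 50 to 55% GC in the 301 bases around the midpoint it was 73.8% for shared, 42.6% for KLF1-ER-only and 57.7% for KLF1-E339K-ER-only sites, and above 60% GC it was 21.7%, 9.55% and 14.2%. The shared sites had a median of 58.5% GC, against 53.8% and 56.8%. Among sites of at most 350 bp the shares were 56.4%, 38.2% and 44.4%. More than 50 kb from the closest TSS, 43 of 58 shared sites (74.1%) held a GATA hexamer, against 40.9% of KLF1-ER-only and 52.2% of KLF1-E339K-ER-only sites, and between 1 and 5 kb the shares were 37.7%, 29.4% and 29.2%. Where the higher of both concentrations lay between 5 and 6, the share was 49.5% for shared, 34.8% for KLF1-ER-only and 39.5% for KLF1-E339K-ER-only sites. No test of these shares was made, since neighbouring and alike sites are not independent.

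TAL1 and GATA1 are known to bind together where the last bases of an E-box precede a GATA motif at a fixed distance. This arrangement, CTG followed by 7 or 8 other bases and AGATAA or TGATAA, was searched after the GATA shares had been seen. It was present within 150 bp of the midpoint at 72 shared sites (15.4%, 12.4 to 18.9), against 7.07% (5.53 to 8.99) of KLF1-ER-only and 7.28% (6.23 to 8.50) of KLF1-E339K-ER-only sites, 1.93% of shared promoter sites, 5.64% of all sites and 4 of the 24 sites where neither protein reached 4. In the windows 1000 bp away it was present at 1.28%, 1.18% and 1.24% of the non-promoter classes in the same order. A spacer of 8 bases was the commonest at shared sites (53 sites, 11.3%), followed by 7 bases (24 sites, 5.12%), while the 10 other spacers from 3 to 14 bases occurred at 0.64 to 4.26% of sites. For the 8-base spacer the share was 3.53% at KLF1-ER-only and 4.46% at KLF1-E339K-ER-only sites. The 10 other spacers occurred at 0.589 to 2.24% and 1.29 to 1.98% of these classes. Some of them were also more frequent at shared sites, such as 11 bases (3.84% against 1.18% and 1.58%). Others were not, such as 6 bases (1.28% against 1.65% and 1.49%). Of the sites with any GATA hexamer in the window, the composite was present at 72 of 238 shared sites (30.3%), 60 of 303 KLF1-ER-only sites (19.8%) and 147 of 816 KLF1-E339K-ER-only sites. The composites of listed genes are printed here with 12 bases on each side, CTG and the hexamer in capitals, to show the spacing in place. Windows that touch an annotated UTR were left out. For Cebpe and for Lyl1, 2 composites were counted, and a single one of each is printed.
Cbfa2t3 (chr8:125244440-125244480, plus strand): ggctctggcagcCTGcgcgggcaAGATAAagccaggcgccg
Cebpe (chr14:55324863-55324903, minus strand): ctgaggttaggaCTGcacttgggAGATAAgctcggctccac
Cpox (chr16:58662156-58662196, plus strand): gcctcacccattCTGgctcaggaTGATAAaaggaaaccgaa
Epb4.1 (chr4:131633420-131633460, plus strand): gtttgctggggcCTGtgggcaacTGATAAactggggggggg
Epb4.9 (chr14:71023821-71023860, minus strand): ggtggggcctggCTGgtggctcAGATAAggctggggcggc
Lyl1 (chr8:87254866-87254906, minus strand): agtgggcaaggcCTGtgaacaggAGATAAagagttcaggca
Sptb (chr12:77774878-77774918, minus strand): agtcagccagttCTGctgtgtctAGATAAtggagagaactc
Zfpm1 (chr8:124843381-124843421, minus strand): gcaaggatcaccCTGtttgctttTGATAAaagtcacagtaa
Of these, the site closest to Zfpm1 had 6.48 for KLF1-ER and 5.48 for KLF1-E339K-ER, that of Cbfa2t3, the corepressor ETO2, 5.76 and 5.60, and that of Lyl1, a relative of TAL1, 6.16 and 7.15. The sites of Epb4.1 (6.07 and 6.75), Epb4.9 (5.82 and 5.23) and Sptb (5.25 and 6.26) lie at genes of the red cell skeleton, and that of Cpox (5.20 and 4.43) at a heme synthesis gene. Cebpe (4.69 and 4.87) is a gene of granulocytes. The full E-boxes CAGCTG and CAGATG, searched without a GATA motif, were found at 41.6% of shared sites, 39.2% of KLF1-ER-only and 40.8% of KLF1-E339K-ER-only sites, so these shares did not follow the composite.

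The shared sites were spread over introns and intergenic sequence much like other non-promoter sites. By their midpoints, 248 (52.9%) were intronic, 181 (38.6%) intergenic, 22 (4.69%) in UTRs, 9 (1.92%) in coding exons and 9 (1.92%) in exons of noncoding transcripts of the GENCODE M1 annotation. The intronic share was 53.4% over all 3361 non-promoter sites, and it was 42.0% at shared sites when any overlap with an exon was counted. The closest TSS was at a median of 8719.5 bp, against 12467.5 and 11799.5 bp, and 162 shared sites (34.5%) lay between 1 and 5 kb, against 24.9% and 29.5%. The site was upstream of that TSS in 189 cases and downstream in 280 (59.7%), close to the 60.0% of all non-promoter sites. In 83 cases (17.7%) GENCODE M1 had another start within 1000 bp, against 12.5% of KLF1-ER-only, 12.8% of KLF1-E339K-ER-only and 13.3% of all non-promoter sites, which shows that non-promoter here refers to the deposited TSS. Shared sites had few CpG dinucleotides, with a median observed to expected ratio of 0.25, close to 0.29 and 0.20 in the non-promoter classes and below 0.67 at shared promoter sites. Another shared non-promoter site lay within 10 kb of 71 of the 469 (15.1%), against 9.66% of shared promoter sites and 8.41% of all sites. Any other consensus site lay within 10 kb of 253 (53.9%), against 35.8% of KLF1-ER-only and 43.7% of KLF1-E339K-ER-only sites. For shared promoter sites this share was 50.5%, close to that of the shared non-promoter sites. 4 shared sites, the E2f2 pair and the Klf9 pair, lay less than 100 bp from another.

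Some shared sites had the same closest gene. The 469 sites named 415 genes, 40 of them (9.64%) more than once and 9 at least 3 times, while the 5551 consensus sites named 3670 genes, 1103 of them (30.1%) more than once. This share grows with the number of sites, so it does not compare how closely the sites of both sets lie. Gse1 and Zfpm1 had 5 each, E2f2 had 4, and 8430427H17Rik, Bahd1, Cic, Rcor2, Thra and Wdr26 had 3. The 5 sites of Gse1 were among 32 consensus sites of that gene and had differences from -1.66 to 1.38. All 4 consensus sites of E2f2 were shared. They lay within 6982 bp, 3 in introns and 1 in a coding exon, at 2511.5, 5346, 5711 and 8945.5 bp downstream of the TSS. KLF1-ER had 5.93, 5.65, 6.70 and 5.00 there and KLF1-E339K-ER 6.59, 4.27, 7.04 and 5.93, so the 2 adjacent sites in the middle differed in balance (-1.38 and 0.34, or -1.91 and -0.19 with the upper quartiles set equal). Both of their printed windows held GGGTGGGG and no purine octamer. The fourth site lay 533 bp from another annotated E2f2 start.

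The 5 shared Zfpm1 sites were all intronic, from 2433 to 37415 bp downstream of the TSS. KLF1-ER had 5.72, 5.91, 5.29, 4.64 and 6.48 in that order, and KLF1-E339K-ER 6.86, 8.50, 7.33, 5.49 and 5.48. KLF1-E339K-ER was thus higher at the first 4 and KLF1-ER at the last. All 5 printed windows held a GATA hexamer and 2 a purine octamer, but none a pyrimidine octamer. The other 5 consensus sites of Zfpm1 passed 4 for KLF1-E339K-ER alone. Nfe2 had a shared site upstream and another in an intron (6.20 and 6.53), and between them a KLF1-ER-only site with 5.00 and 0.05. Both shared sites of Nfe2 lay within 148 bp of further GENCODE M1 starts of that gene. At Gata1 the upstream site was the sole shared non-promoter site, beside a shared promoter site (7.43 for KLF1-ER and 6.79 for KLF1-E339K-ER) and 2 intronic sites with 6.93 and 5.76 for KLF1-E339K-ER and 3.43 and 3.82 for KLF1-ER.

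**Figure D5:**
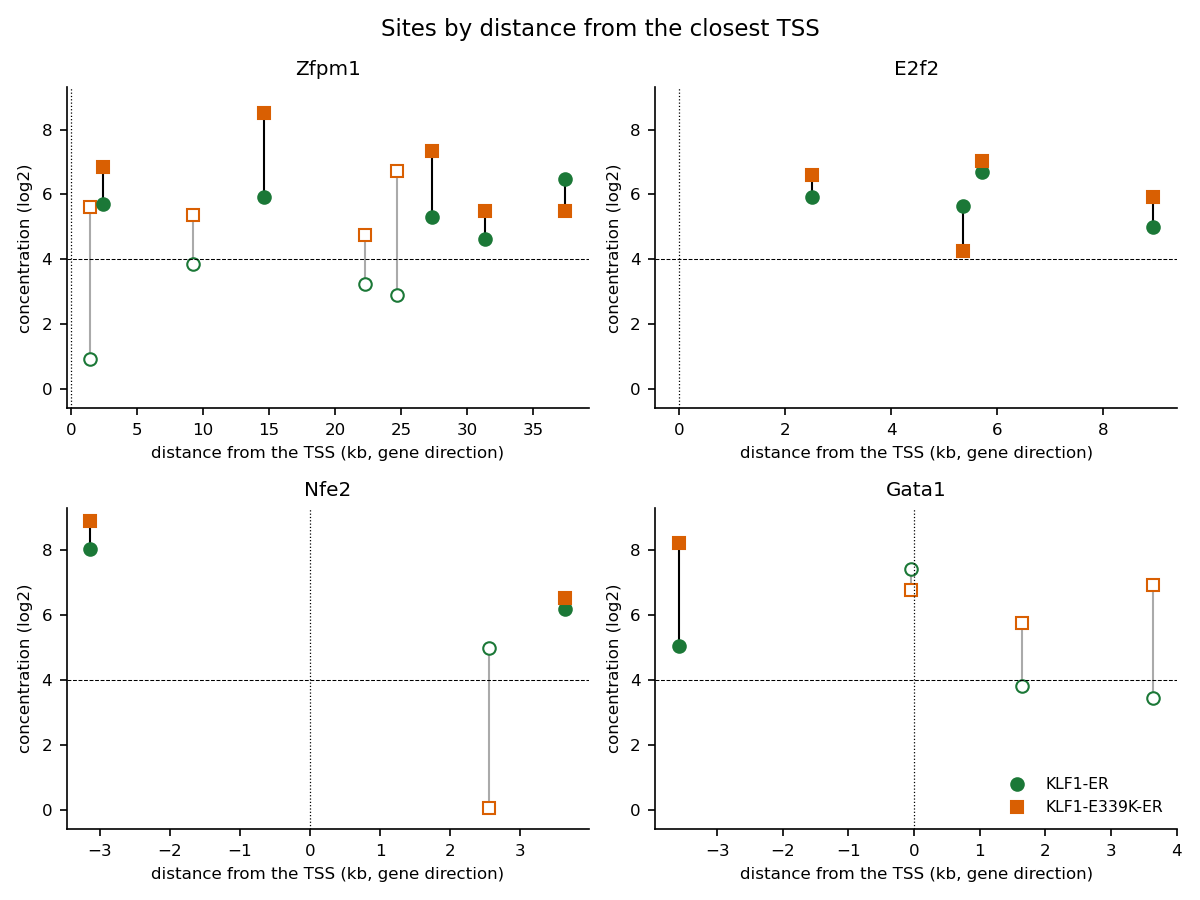
Concentration (log2) of KLF1-ER (circles) and KLF1-E339K-ER (squares) at the consensus sites of Zfpm1, E2f2, Nfe2 and Gata1 by distance from the TSS in kb, positive downstream. Filled symbols are shared non-promoter sites and open symbols all other sites within 50 kb, and the dashed line marks the threshold of 4. All 4 E2f2 sites and 5 of the Zfpm1 sites are filled.

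Among the gene lists, the erythroid transcription factors had the most shared sites. 14 of 21 genes were the closest gene of at least 1, with 21 sites in all, and 17 of the 21 were closest to any consensus site. For comparison, 2.94% of the 11364 genes with nascent RNA values were closest to a shared site and 26.4% to any site. On the deposited scale, Tal1 (5.82 for KLF1-ER and 4.24 for KLF1-E339K-ER), Ldb1 (5.46 and 4.49) and Zbtb7a (4.79 and 4.19) leaned to KLF1-ER. Klf13 (5.61 and 7.15), Runx1 (5.20 and 6.18) and Sox6 (4.77 and 5.92) leaned to KLF1-E339K-ER. Foxo3 had 5.37 for KLF1-ER and a difference of -0.47, and Lyl1 had a site on each side (5.68 and 4.30, 6.16 and 7.15). The pair at Klf9 also differed, with 5.43 and 7.76 at one site and 6.55 and 6.18 at its neighbour. A site in a coding exon of Klf1 had 4.58 and 6.08, and there reads from the Klf1 transgene cannot be told apart from reads of the endogenous locus.

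Of the 14 genes of the red cell membrane and skeleton, 7 had a shared site, which besides the genes already named were Slc4a1, the anion exchanger band 3 (5.20 for KLF1-ER and 4.08 for KLF1-E339K-ER), Rhd (4.46 and 5.16), Add1 (4.58 and 6.45) and Gypc, which codes for glycophorin C (5.10 and 5.33). Heme synthesis had 4 of 11 genes. Alad, the enzyme that makes porphobilinogen, had 6.39 and 5.24, and the mitochondrial transporters Slc25a38 and Abcb10 had 6.57 and 6.46, and 6.02 and 7.13. The iron genes with a site (2 of 9) were Slc11a2 (4.79 and 5.46), the divalent metal transporter, and Ftl1 (4.77 and 4.68), the ferritin light chain. In the cell cycle list (2 of 14 genes) Ccnd3, a D-type cyclin gene, had an intronic site with 7.33 and 6.91, besides the sites of E2f2. Erythropoietin and survival signalling had 2 of 12 genes, Pim1 (4.40 and 4.46) and Stat5a (5.76 and 5.83), the latter in a UTR of Stat3. No shared site was closest to a gene of the globin (7 genes), blood group (10) or autophagy and maturation (8) lists, where any consensus site was closest to 3, 4 and 2 genes and a shared promoter site to 0, 3 and 0. With 2.94% of all genes closest to a shared site, a count of 0 in lists this short is near the background. The marker lists of other cell types had 1 gene, Cebpe, of 8 myeloid genes, and 0 of 8 megakaryocyte, 7 lymphoid, 4 mast cell, 4 hepatocyte and 6 stromal and endothelial genes.

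Nascent RNA gives the level of the closest genes. Of the 415 genes, 334 (80.5%) were in the tables of nascent RNA, close to the 81.9% of the closest genes of all sites. Levels are the authors' mean over all libraries of the fit, given here as log2 CPM per kb of gene length. The mean is the same in both gene tables, and is therefore taken to include KLF1-ER libraries besides those listed above. Their median level was 1.67 (quartiles -0.39 and 3.20), against 1.16 for KLF1-ER-only, 1.15 for KLF1-E339K-ER-only, 1.81 for shared promoter sites and 0.82 for all 11364 genes. With the closest TSS within 10 kb the median was 2.23. Gata1 (6.68), Tal1 (5.86), Zbtb7a (5.84), Klf1 (5.09) and Zfpm1 (5.01) were far above that median, and Sox6 (-1.57), Stat5a (-3.49) and Epb4.9 (-3.27) below it. The Klf1 value includes RNA of the transgene. Such a mean does not show whether a gene responds to either protein.

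The same tables were used to check the erythroid label. In log2 CPM, the erythroid transcription factor list had 18 of 21 genes in the tables, led by Zfpm1 (10.80), heme synthesis 11 of 11, led by Abcb10 (10.49), and membrane genes 14 of 14, led by Epb4.1 (10.23). The globin list had 6 of 7 genes, led by the embryonic gene Hbb-bh1 (6.74), with 3.87 for Hbb-b1. These genes are short, and per kb the median of the globin list was 3.24, against 2.90 for the erythroid transcription factors, 3.49 for heme synthesis and 1.57 for membrane genes. Megakaryocyte markers were listed for 3 of 8 genes, led by Itga2b (5.30) and Vwf (5.29), without Pf4 or Gp5. Per kb these were 1.25 and -1.78, and Gp9 had 1.08, which is also the median of the megakaryocyte list. That median lay below those of the erythroid lists given above. Single erythroid genes lay on both sides of Itga2b, such as Hbb-b1 (3.39) above it and Alas2 (0.75), Hba-x (0.06) and Epb4.9 (-3.27) below it. Myeloid markers were listed for 3 of 8, led by Mpo (1.84), lymphoid markers for 1 of 7, Lck (0.72), and stromal and endothelial markers for 2 of 6, led by Col3a1 (4.53). No mast cell or hepatocyte marker was listed (0 of 4 and 0 of 4).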

How the data were processed

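Ion Proton reads had been aligned to mm9 by the authors (for RNA with TopHat2 2.0.10 and TMAP), who called ChIP peaks, merged them into 5551 consensus sites and compared both proteins with DiffBind. The deposited site concentrations are log2 values, the mean normalised read count of each protein. The wild type (KLF1-ER) libraries belong to earlier work of the authors outside this series, and replicates were pooled before the KLF1-E339K-ER library was made. In the gene tables, the deposited mean expression is log2 CPM from limma over all libraries of the fit, and gene length is in bp. The authors' comparison columns (fold, p-value and FDR per site; log2 fold change, t and adjusted p per gene) were not used. No counts were used, so the depth of each library is unknown.

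The sign of the deposited distance to the closest TSS was checked: the midpoint plus the distance fell within 2 bp of a GENCODE M1 start at 3529 sites, and the midpoint minus the distance at 17. It therefore follows genome coordinates, and sides were set with the strand of the gene. The NCBIM37 sequence was searched on both strands for the words given in the text, overlapping matches included, with scripts in Python 3.11.15 (pysam 0.24.0, pandas 2.3.3, scipy 1.17.1) tested on simulated data. Intervals of shares are 95% Wilson intervals. Alias pairs of gene symbols were counted as 1 gene.

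Sites named are the 8 with the highest lower concentration, the 4 with the largest difference each way, the 2 just inside and outside each threshold, those closest to a listed gene, and genes with the most sites. Sequences were meant for every listed gene, but to keep the text short only those of E2f2, Zfpm1 and the composites are printed, with none that touch a UTR. Genes and sites outside the rule, named for a locus or a composite, were chosen after their values were seen. The members and lists were chosen with earlier results of these data known. Alternatives were other thresholds, windows, scaling, TSS annotation and site widths. The composite, the site widths, sites that touch another left out and the GENCODE M1 starts for motif shares were added after the data were seen.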

Additional observations from a re-analysis of the deposited data

How the results depend on the processing

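Of 62 values under other settings, 36 stayed within the 95% interval of the main value (for the number of sites, within 1.5 times) and 25 moved, and 1 was reversed in sign. The number of shared non-promoter sites was 312 with a concentration minimum of 4.5 and 192 with a minimum of 5, against 678 with 3.5, which follows from the rule. At the minimum of 5, the share without a KLF octamer was 56.2%, with a purine octamer 26.6% and with a pyrimidine octamer 27.6%, and the median level of the closest genes was 2.10 log2 CPM per kb. With the upper quartiles set equal, the median difference in concentration was 0.02 on the sites that then met the rule, and it turned to -0.16 on the same 469 sites, an alternative added after seeing the data, so no direction is read from it. The shares without an octamer, with a purine and with a pyrimidine octamer were 67.2%, 18.1% and 22.4% with 25 bp on each side, 30.9%, 46.9% and 48.2% with 100 bp, and 16.4%, 64.0% and 65.7% over the whole site, where the length searched differs. The share with a GATA hexamer was 28.1% with 50 bp on each side and 58.0% over the whole site. Counting any overlap with an exon left 42.0% of sites in introns. The median gene level was 6.52 as log2 CPM without length and 2.23 with the closest TSS within 10 kb. Among sites of at most 350 bp, an alternative chosen after seeing the data, the shares without an octamer, with a purine, with a pyrimidine octamer and with GATA were 37.2%, 36.2%, 45.7% and 56.4%; the cause was not tested. The share with GATA was higher at shared sites than in both one-protein classes under each of the settings tried for it, for example 55.0%, 37.3% and 42.1% with the closest TSS recomputed from GENCODE M1, also chosen after seeing the data.

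Leaving out replicates was impossible, because each protein has a single value per site. No paired analysis was possible because the results come from no test and the tables hold no value per library. Unknown depth, wild type libraries from earlier work and 1 mutant clone limit each comparison between proteins: protein, clone and library cannot be told apart.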

Other observations

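Motifs of other erythroid and general factors were counted in the same classes. Within 150 bp of the midpoint, the AP-1/NF-E2 heptamer TGAGTCA was found at 7.46% of shared sites, 5.54% of KLF1-ER-only and 7.03% of KLF1-E339K-ER-only sites, against 4.69% of the windows 1000 bp away from shared sites. The RUNX heptamer TGTGGTT was found at 7.04%, 8.01% and 6.98% in the same order, against 8.74% of the distant windows, and the ETS octamer CAGGAAGT at 3.20%, 1.30% and 2.97%, against 2.56%. The NFY pentamer CCAAT was found at 23.9%, 25.3% and 25.1%, and at 29.2% of the distant windows.

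The shared sites were spread over the genome, with the most on chromosome 11 (40), followed by chromosomes 15 and 2 (38 each). All consensus sites were not counted by chromosome, so no excess on any chromosome is read from this order. At 77 shared sites (16.4%) no KLF octamer was found anywhere in the site. These had medians of 4.79 for KLF1-ER and 5.33 for KLF1-E339K-ER, against 5.53 and 5.79 at the 216 sites with both kinds of octamer. By octamers within 50 bp of the midpoint the order for KLF1-ER was the other way. There the medians were 5.24 and 5.68 with neither kind, against 4.87 and 5.69 with both kinds. These concentrations chose the sites, and a wider site has more bases to search, so no link between octamers and concentration is read from them.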
